A study of Mus musculus with 3 samples.

Results

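Cycling T-lineage barcodes were examined in droplet single-cell RNA libraries of the intima of the mouse aortic arch. A barcode was a member when it held at least 500 UMIs (unique molecular identifiers, each counting 1 captured RNA molecule) and 300 genes, at most 15% mitochondrial UMIs, at least 3 UMIs summed over the T-cell genes Cd3e, Cd3d, Cd3g, Trac, Trbc2 and Lck, at most 2 UMIs of the macrophage genes C1qa, C1qb and C1qc, and at least 5 UMIs summed over Mki67, Top2a, Ube2c, Birc5, Rrm2 and Pclaf from at least 2 of those 6 genes. The rule found 218 members among 12082 barcodes, 9 in the LPS library, 20 in control replicate 1 and 189 in control replicate 2. They were set against 1654 non-cycling T-lineage barcodes (78, 138 and 1438 in the same order), which passed the same quality, T-cell and C1q limits and held at most 1 UMI of the 6 cycle genes. The remaining 48 T-lineage barcodes lay between those classes and entered no comparison.

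All mice were wild-type C57BL/6J of 12 to 13 weeks, with both sexes mixed. The LPS library came from mice injected intravenously with 30 µg of ultrapure LPS, a bacterial endotoxin, 18 h before harvest, and the 2 control libraries from untreated mice. Each library pooled the lesser-curvature cells of 5 to 10 mice, so a library is 1 sample and its animals cannot be told apart. Mice of all groups were perfused with the transcription inhibitor actinomycin D, and the cells were dislodged after a 10-min digestion with collagenase D and DNase I. The study asks, by its title, about plasma sphingosine 1-phosphate (S1P) and the reverse migration of intimal myeloid cells across endothelium.

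A dividing cell copies its DNA in S phase, when E2F factors drive replication genes. It then makes the mitotic machinery in G2 and M phase, when MuvB complexes with B-Myb and FoxM1 drive genes such as Top2a, Ube2c and Ccnb1. In T-cell development division is concentrated in the thymus. Early thymocytes that lack the coreceptors CD4 and CD8 carry the interleukin 2 receptor alpha chain Il2ra and transcribe the T-cell receptor gamma and delta loci, and they divide in a burst once a beta chain pairs with the pre-T alpha chain Ptcra. They then gain CD8 and CD4, leave the cycle, raise Rag1 and Rag2 again and rearrange the alpha chain gene, which deletes the delta gene that lies inside the alpha locus.

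Promoters of 3 of the gate genes are shown because they hold the letters linked to the 2 waves of cycle transcription. The sequences are from RefSeq (GRCm38.p6) and run from 250 bases before to 50 bases after the annotated start of the gene, read on the strand of the gene. Top2a, a topoisomerase that untangles DNA, has its window at chr11:99024140-99024439 on the minus strand. Ube2c, a ubiquitin-conjugating enzyme of mitotic exit, has its window at chr2:164769679-164769978 on the plus strand. Pclaf, a PCNA partner at replication forks, has its window at chr9:65890073-65890372 on the plus strand. Capitals mark CHR letters (TTTGAA or TTCGAA), the CCAAT box and E2F letters (TTTCCCGC or TTTGGCGC), each on either strand.
Top2a: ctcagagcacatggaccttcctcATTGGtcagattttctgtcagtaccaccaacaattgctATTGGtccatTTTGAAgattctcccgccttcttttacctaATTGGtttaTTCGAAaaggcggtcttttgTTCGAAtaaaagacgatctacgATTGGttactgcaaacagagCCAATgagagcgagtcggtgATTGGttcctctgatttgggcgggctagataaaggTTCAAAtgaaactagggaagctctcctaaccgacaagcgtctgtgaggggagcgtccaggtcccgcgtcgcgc
Ube2c: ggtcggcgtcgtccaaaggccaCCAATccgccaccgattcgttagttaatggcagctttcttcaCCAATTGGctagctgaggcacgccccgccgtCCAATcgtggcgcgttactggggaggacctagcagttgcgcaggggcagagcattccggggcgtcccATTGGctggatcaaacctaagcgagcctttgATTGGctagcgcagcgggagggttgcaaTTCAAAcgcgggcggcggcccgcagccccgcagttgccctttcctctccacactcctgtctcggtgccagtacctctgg
Pclaf: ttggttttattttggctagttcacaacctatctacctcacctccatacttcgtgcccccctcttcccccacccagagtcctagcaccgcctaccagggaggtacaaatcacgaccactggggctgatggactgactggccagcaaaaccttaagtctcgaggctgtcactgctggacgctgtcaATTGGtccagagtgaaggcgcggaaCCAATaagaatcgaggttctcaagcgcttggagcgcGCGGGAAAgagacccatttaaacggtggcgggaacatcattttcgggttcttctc

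CHR letters stood in 72.9% of 48 windows of the G2/M list (43 of its 50 genes matched), against 18.2% of 33 windows of the S-phase list (30 of its 42 genes matched) and 19.2% of all 32851 windows. E2F letters stood in 4.17% of the G2/M windows, 30.3% of the S-phase windows and 1.56% of all windows. The CCAAT box stood in 75.0% of G2/M windows, 66.7% of S-phase windows and 37.4% of all windows. The motif counts describe letters in these windows and do not show binding. Both lists leave out the 6 gate genes. Of the 6 windows of those genes, CHR letters stood in 3, E2F letters in 1 and the CCAAT box in 5. The Birc5 window held none of these letters, and that of Rrm2 a CCAAT box only.

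The gate genes cannot check the label, since they chose the members. Thymocyte genes outside the gate are given further on. The members held 442, 2623 and 20631 UMIs of the T-cell genes, and 345, 2453 and 15974 UMIs of the cycle genes, in the LPS library and control replicates 1 and 2. Of the 245 quality-filtered barcodes that passed the cycle gate, 18, 21 and 206 in the 3 libraries, 21 failed the T-cell gate and 6 failed only the C1q limit. Near the limits, 9 members held 5 or 6 cycle UMIs while 17 T-lineage barcodes just outside held 3 or 4. Of the members, 4 held 3 or 4 T-cell UMIs, and 1 barcode just outside held 1 or 2.

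Library totals were 21864072 UMIs in the LPS library and 4940996 and 20069697 UMIs in control replicates 1 and 2. The summed depth of the members was 103974 UMIs in the LPS library, where 1 UMI is worth 9.62 CPM (the share of a gene in all UMIs of the same sum, per 1000000), against 491301 and 3107942 UMIs in the controls, where it is worth 2.04 and 0.322 CPM. Members were deep barcodes. Their median was 6712 UMIs in the LPS library and 18084 and 14523 in the controls, while non-cycling T-lineage barcodes had medians of 5027.5, 3677 and 4015.5. Above the 99th percentile of their own library's non-cycling barcodes lay 155 of the 218 members. Deep barcodes reach a gate of 5 UMIs more easily, and no doublet caller was run. Mitochondrial shares of members had medians of 3.28%, 3.71% and 6.79%, against 4.04%, 6.00% and 10.8% in non-cycling barcodes. Libraries shared 1 to 6 barcode sequences pairwise, none of them among members.

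Erythroid RNA set 1 LPS member and 1 member of control replicate 2 apart. In the LPS member 12559 of 31525 UMIs (39.8%) came from 6 erythroid genes, and the next LPS member held 13 such UMIs. In the control member they were 6267 of 20871 UMIs (30.0%), and the next held 30. Several results that rest on the LPS members are therefore given without these barcodes, where stated, and all others include them. Markers of other cells were not low in every library. Smooth muscle markers summed to 164, 55.0 and 1174 CPM in members, below the 513, 299 and 4312 CPM of non-cycling barcodes. In control replicate 2 all 5 of these genes contributed, and 187 of 189 members held at least 3 such UMIs. Fibroblast markers summed to 67.3, 20.4 and 224 CPM in members, below the 252, 59.4 and 780 CPM of non-cycling barcodes. At least 3 fibroblast UMIs were held by 133 of 189 members of control replicate 2. B-cell markers summed to 135, 250.4 and 346 CPM, of which Ighm gave 10 of 14, 122 of 123 and 993 of 1075 UMIs, with Pax5 at 0 UMIs in every library. Monocyte markers summed to 125, 344 and 84.6 CPM, of which Plac8 gave 13 of 13, 169 of 169 and 253 of 263 UMIs. The part of RNA from other cells in the results below was not tested beyond these values.

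The cycling share of T-lineage barcodes was 10.0% in the LPS library (9 of 90, exact 95% Clopper-Pearson interval 4.68 to 18.1), 12.3% in control replicate 1 (20 of 162, 7.71 to 18.4) and 11.3% in control replicate 2 (189 of 1668, 9.85 to 13.0). The 3 intervals overlapped. With a mitochondrial limit of 10% the interval of control replicate 2 lay above the others, at 27.9% (24.5 to 31.5). The LPS library was at 10.5% (4.90 to 18.9) and control replicate 1 at 13.1% (8.17 to 19.5), and these overlapped. Under that limit T-lineage barcodes of control replicate 2 went from 1668 to 649 and its members from 189 to 181. In the full gate both control shares lay within the interval of the LPS share, and 1 library against 2 cannot give an exact permutation p under 0.05. Intervals cover counting error only. After each barcode was thinned to 1500 UMIs, a gate of 2 cycle UMIs gave 10.0%, 12.9% and 9.99%, and the full gate of 5 UMIs gave 3.33% in the LPS library against 10.3% and 7.59% in the controls. As a share of all quality-filtered barcodes, members were 0.175% in the LPS library against 4.64% and 7.01% in the controls. That share also follows how many T-lineage and other cells each dissection yielded.

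Members held RNA of both S-phase and G2/M genes. Genes of the S-phase list summed to 2126 CPM in LPS members, against 6314 and 6931 CPM in control members, and genes of the G2/M list to 11705 CPM against 17116 and 16817 CPM. In non-cycling barcodes the S-phase list summed to 829, 919 and 971 CPM, and the G2/M list to 1720, 2371 and 2189 CPM. Of the UMIs of both lists, the median member had 85.4% in the G2/M list in the LPS library and 68.7% and 67.6% in the controls. The share exceeded 50% in 8 of 9 LPS members, 16 of 20 members of control replicate 1 and 145 of 189 of control replicate 2, and 1, 4 and 29 members lay between 45% and 55%. These shares are positions on a range and do not by themselves place a cell in a phase.

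**Figure D1:**
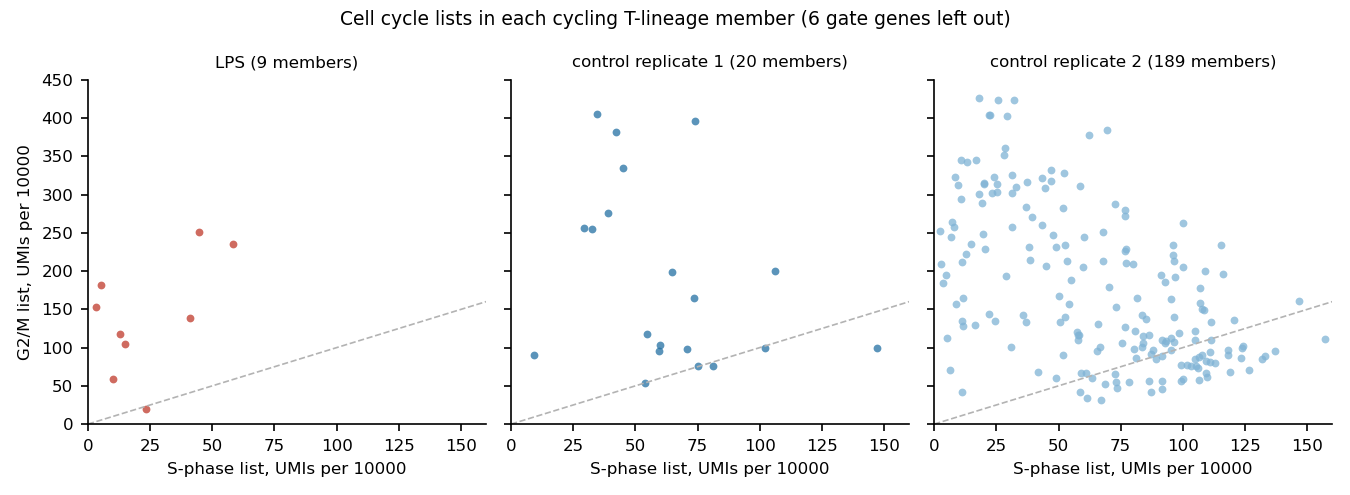
Each point is 1 member, with UMIs of the S-phase list per 10000 UMIs on the x axis and UMIs of the G2/M list per 10000 on the y axis, both without the gate genes, and a dashed line of equal values. The 9 LPS members lie between 3.13 and 58.3 on the x axis, inside the range of the controls, where the LPS sum was 2126 CPM against 6314 and 6931 CPM in the controls, and 169 of the 218 members lie above the line.

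Members were also split at a G2/M share of 50%. Ccnb1, the cyclin that drives entry to mitosis, was at 190.1 and 309 CPM in control members with a G2/M share over 50%, against 0 and 18.4 CPM in the other control members. Ccne2, an S-phase cyclin, was at 68.1 and 48.1 CPM in the same members, against 123 and 114 CPM. Rag1, the recombinase gene, was at 258 and 439 CPM in members with a G2/M share over 50%, against 92.0 and 225 CPM in the others. Cd8b1, the CD8 beta chain, was at 605 and 970.2 CPM, against 552 and 716 CPM. Only 4 members of control replicate 1 were in the lower range, and no test was made of this split, which the data themselves set.

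Nearly all members carried thymocyte genes. At least 1 UMI of Rag1, Cd8a, Cd8b1 or Dntt, the terminal transferase that adds bases at receptor joins, was found in 216 of 218 members. Dntt was found in 9 of 9, 20 of 20 and 183 of 189 members, Rag1 in 8, 18 and 158, and a CD8 chain in 8, 18 and 172. Cd4 and a CD8 chain together were found in 5, 15 and 117 members, 137 in all. In macrophage-gated barcodes, which should lack these genes, Rag1 was found in 0 of 92, 2 of 26 and 15 of 116 at medians of 3107.5, 1442 and 2646 UMIs, and Dntt in 0, 1 and 13. The members' shares lay above those background shares, at larger depth. Thinned to 1500 UMIs, Rag1 was found in 35.0% and 39.6% of control members.

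Member sums were compared with non-cycling sums of the same library by edgeR's quasi-likelihood test over the 2 control libraries, which leaves 1 residual degree of freedom, so p-values rest on the spread between these 2 pools shared across genes. The LPS library, with 9 members, was left out of the test and its values are given as a description. Of 9779 genes tested, 2197 were called higher in members (22.5%) and 2646 lower (27.1%) at an adjusted p under 0.05, so 49.5% of all genes were called and a call alone sets a gene little apart. Over 2-fold, 12.8% were called higher and 16.8% lower. The median log2 fold change over all genes tested was -0.16.

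The recombinase and coreceptor genes of double-positive thymocytes were lower in members than in non-cycling T-lineage barcodes. Rag1 was at 250.1 CPM in LPS members, 236 CPM in members of control replicate 1 and 386 CPM in those of control replicate 2, against 415, 1594 and 1474 CPM in non-cycling barcodes. All 3 member values lay below all 3 non-cycling values. The log2 fold change in the controls was -2.08 ± 0.14 (SE; edgeR adjusted p = 6.6e-48). Cd4 was at 106, 65.1 and 96.2 CPM in members, against 178, 418 and 383 CPM, and fell by 2.00 ± 0.16 (log2, adjusted p = 7.0e-33).

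Cd8b1 was at 500.1, 598 and 908 CPM in members, against 387, 1857 and 1778 CPM in non-cycling barcodes. It fell in both controls (log2 fold change -1.06 ± 0.13, adjusted p = 7.6e-16), while the LPS values lay the other way, and with the LPS library added to the fit the call was lost (adjusted p = 0.0997). Among barcodes of 6000 to 20000 UMIs the call turned round, with Cd8b1 at 0.58 and Cd8a at 0.89 on the log2 scale, both called higher, and Rag2 at 0.71 with an adjusted p of 0.053. In that window Rag1 was at -0.46 (adjusted p = 0.081) and Cd4 at -0.51 (adjusted p = 0.10), neither past the threshold. The non-cycling barcodes of the window were another mix. Rag1 was found in 6 of 18 and 81 of 151 of them, against 12 of 12 and 112 of 124 members. Median depths in the window also differed, at 15322.5 and 13188.5 UMIs in control members against 8379.5 and 6990 UMIs. Among Rag1-positive barcodes of the window Cd8b1 was at 1210 and 1422 CPM in control members, against 1822 and 1568 CPM in non-cycling ones. Cd8a was at 774 and 952 CPM, against 964 and 758 CPM. No test was made of these Rag1-positive values.

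Ccr9, the receptor for the thymic and gut chemokine Ccl25, was at 404, 56.99 and 221 CPM in members, against 518, 1178 and 1163 CPM in non-cycling barcodes. It fell by 2.86 ± 0.15 on the log2 scale in the controls (adjusted p = 2.0e-73) and by 1.45 in the window of 6000 to 20000 UMIs, where it was still called. In the LPS pair the difference was small. Of 22 genes of the double-positive list, 17 were called lower, 2 higher and 3 neither, with a median log2 fold change of -0.87. The chromatin organiser Satb1 (-1.11) and the signalling adaptor Themis (-1.37) were among those that fell, though neither was called in the window of 6000 to 20000 UMIs. The exceptions were Mns1 (1.63), which keeps its sign in that window at 2.39, and the surface protein gene Ly6d (0.47), whose call was lost with the LPS library added to the fit (adjusted p = 0.072).

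The receptor loci parted. Trdc, the delta chain constant gene (chromosome 14, 54142851 to 54148868, GRCm38), was at 67.3, 173 and 314 CPM in members, against 19.6, 38.4 and 31.1 CPM in non-cycling barcodes. Members lay above non-cycling barcodes in all 3 libraries, and the log2 fold change in the controls was 3.27 ± 0.19 (adjusted p = 6.1e-62), with 1.87 in the window of 6000 to 20000 UMIs. Trac, the alpha chain constant gene downstream (54220521 to 54224206), is a gate gene and is described only. It was at 76.9, 46.8 and 124 CPM in members, against 472, 561 and 566 CPM in non-cycling barcodes. By barcode, 54 members had Trdc without Trac, 42 Trac without Trdc, 100 both and 22 neither. Trdc was found in 4 of 9, 16 of 20 and 134 of 189 members, against 8 of 78, 11 of 138 and 120 of 1438 shallower non-cycling barcodes, and in 0 of 92, 0 of 26 and 4 of 116 macrophage-gated barcodes.

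**Figure D2:**
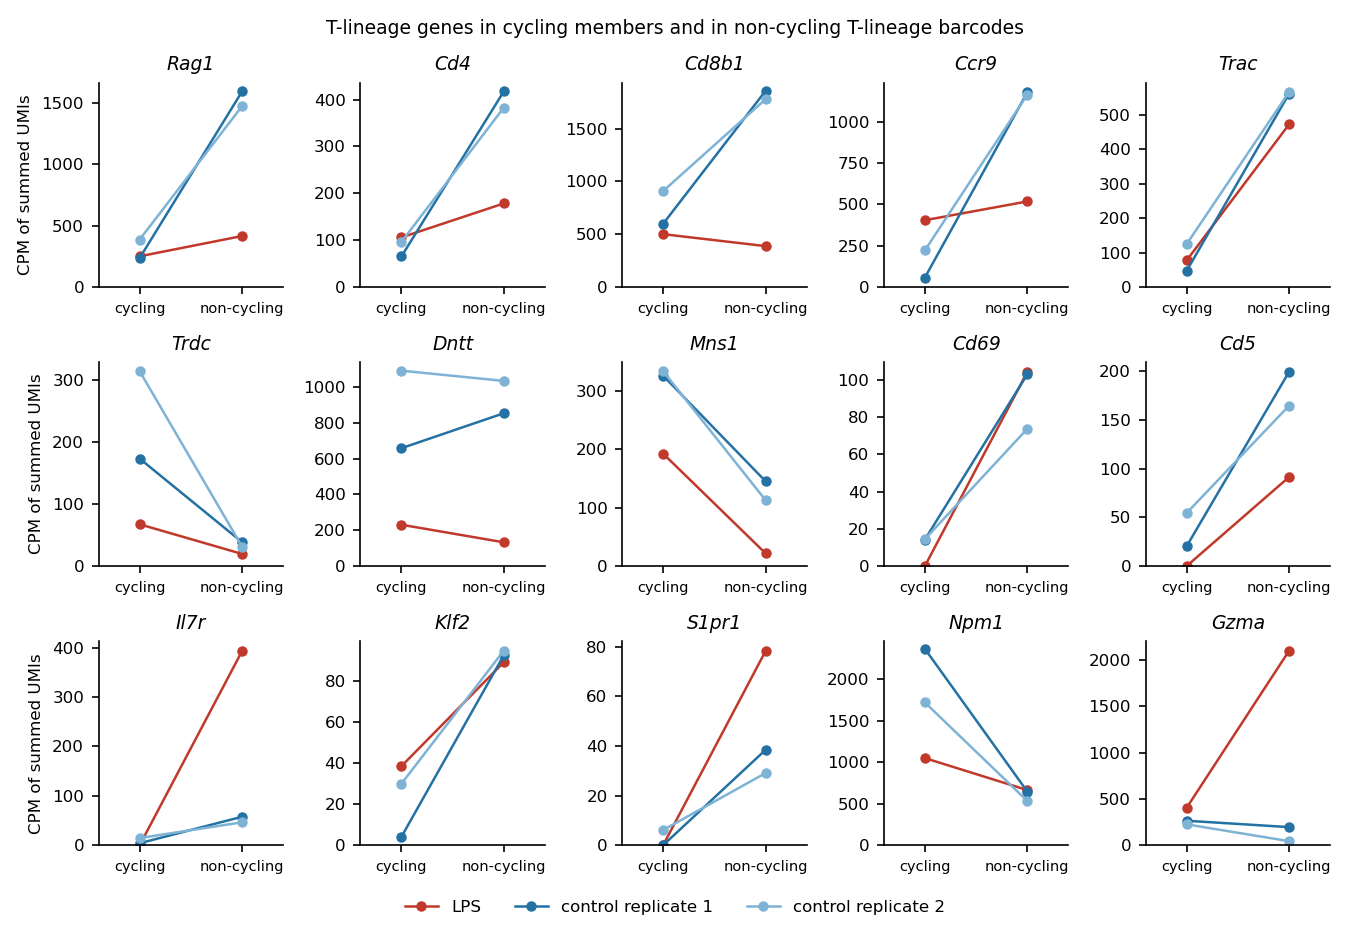
Each panel shows 1 gene, with the CPM of the summed UMIs on a y axis from 0, cycling members on the left and non-cycling T-lineage barcodes on the right, joined within each library. Rag1, Cd4, Trac and Cd69 are lower and Trdc and Mns1 higher in members of every library, while Cd8b1 and Gzma run opposite ways in the LPS library and the controls.

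Early thymocyte genes were mixed. Notch1, the receptor that commits cells to the T lineage, was at 28.9, 128 and 124 CPM in members, against 34.8, 62.9 and 70.3 CPM in non-cycling barcodes. It was called higher in the controls (1.07 ± 0.19, adjusted p = 1.1e-07) but was at -0.20 in the window of 6000 to 20000 UMIs. Ptcra, whose product pairs with the beta chain, was at 9.62, 52.9 and 65.6 CPM, against 6.52, 57.7 and 43.9 CPM, and was called higher (0.60 ± 0.23, adjusted p = 0.021). The call was lost in that window (0.01, adjusted p = 0.99) and with the LPS library added to the fit (0.47, adjusted p = 0.19). Dntt was at 231, 657 and 1089.8 CPM, against 133, 853 and 1033 CPM, with a log2 fold change of 0.09 ± 0.13 (adjusted p = 0.61). In the window it was called higher (0.93, adjusted p = 7.0e-05). Of 14 genes of the early list that were tested, 2 were called higher, 4 lower and 8 neither. Of all genes tested 22.5% were called higher and 27.1% lower, so these counts do not set the list apart. Among its lower genes were the progenitor factors Hhex (-3.52) and Lmo2 (-1.74).

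The members were not alike among themselves, and members over 20000 UMIs differed from those of 6000 to 20000 UMIs. This split was made after the values were seen and carries no test. Members with over 20000 UMIs numbered 2, 7 and 50, those with 6000 to 20000 UMIs 3, 12 and 124, and those below 4, 1 and 15. In members over 20000 UMIs Rag1 was at 95.2 and 192 CPM in control replicates 1 and 2, against 493 and 545 CPM in members of 6000 to 20000 UMIs. Cd8b1 was at 260.1 and 369 CPM, against 1210.3 and 1351 CPM. Cd4 was at 25.4 and 33.6 CPM, against 138 and 150 CPM. The deepest members of both controls thus held less of the coreceptor and recombinase genes per UMI.

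Other genes were higher in the deepest members of both controls. Il2ra was at 95.2 and 42.7 CPM in members over 20000 UMIs, against 11.5 and 14.2 CPM in those of 6000 to 20000. Npm1, a nucleolar protein of ribosome assembly, was at 3178 and 2475 CPM, against 889 and 1062 CPM. Cdk6, a G1 kinase, was at 295 and 293 CPM, against 11.5 and 94.3 CPM. Gzma, the granule protease granzyme A, was at 368 and 383 CPM, against 68.8 and 90.6 CPM. Of the Gzma UMIs of these deepest members, 1 member held 73 of 116 in control replicate 1 and 131 of 547 in control replicate 2. Plac8 was at 533 and 156 CPM, against 5.74 and 16.6 CPM. Trdc, at 146 and 325 CPM against 224 and 304 CPM, differed less between the bins. Dntt was lower in the deepest members, at 463 and 901 CPM against 1009.5 and 1240.5 CPM. Ptcra (50.7 and 73.6 against 57.4 and 61.0 CPM) and Myc (12.7 and 65.2 against 17.2 and 26.5 CPM) ran opposite ways in the 2 controls. Not every gene rose steadily with depth. In the 15 members of control replicate 2 under 6000 UMIs, Npm1 (1450 CPM), Gzma (121 CPM) and Plac8 (51.8 CPM) lay above the middle bin. Il2ra (0 CPM) and Cdk6 (86.3 CPM) lay below it.

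The gamma chain constant genes Tcrg-C1, Tcrg-C2 and Tcrg-C4 marked few members. They summed to 457 and 226 CPM in control members over 20000 UMIs, against 0 and 21.6 CPM in those of 6000 to 20000 UMIs. Of 511 gamma chain UMIs in all members, 416 lay in 10 members with at least 10 each, the highest with 99. Of these 10 members, 8 held at least 5 Il2ra UMIs. No other member reached 5 Il2ra UMIs, and the 8 held 107 of the 117 Il2ra UMIs of all members. All 8 were control members, 2 and 6 in replicates 1 and 2.

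A looser limit of 3 gamma chain UMIs found 25 members, 2, 4 and 19 by library, of which 22 exceeded 20000 UMIs. Cd4 was absent from 24 of the 25 and both CD8 chains from 15, while Trdc was found in 22 and Trac in 9. Cd8b1 was at 43.2 and 78.1 CPM in the control members of this kind, against 1094 and 1087 CPM in the other control members. Rag1 was at 25.9 and 47.2 CPM, against 424 and 459.5 CPM. Npm1 was at 3903 and 3020.5 CPM, against 989.6 and 1437 CPM. In the LPS library both members of this kind held no more than 4 gamma chain UMIs. Some of these barcodes also carried markers of other lists: Plac8 of the monocyte list was at 725 and 356 CPM against 3.85 and 22.3 CPM, and Cpa3 of the mast-cell list at 130 and 36.3 CPM against 0 and 0 CPM. Their part in the result was not tested.

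**Figure D3:**
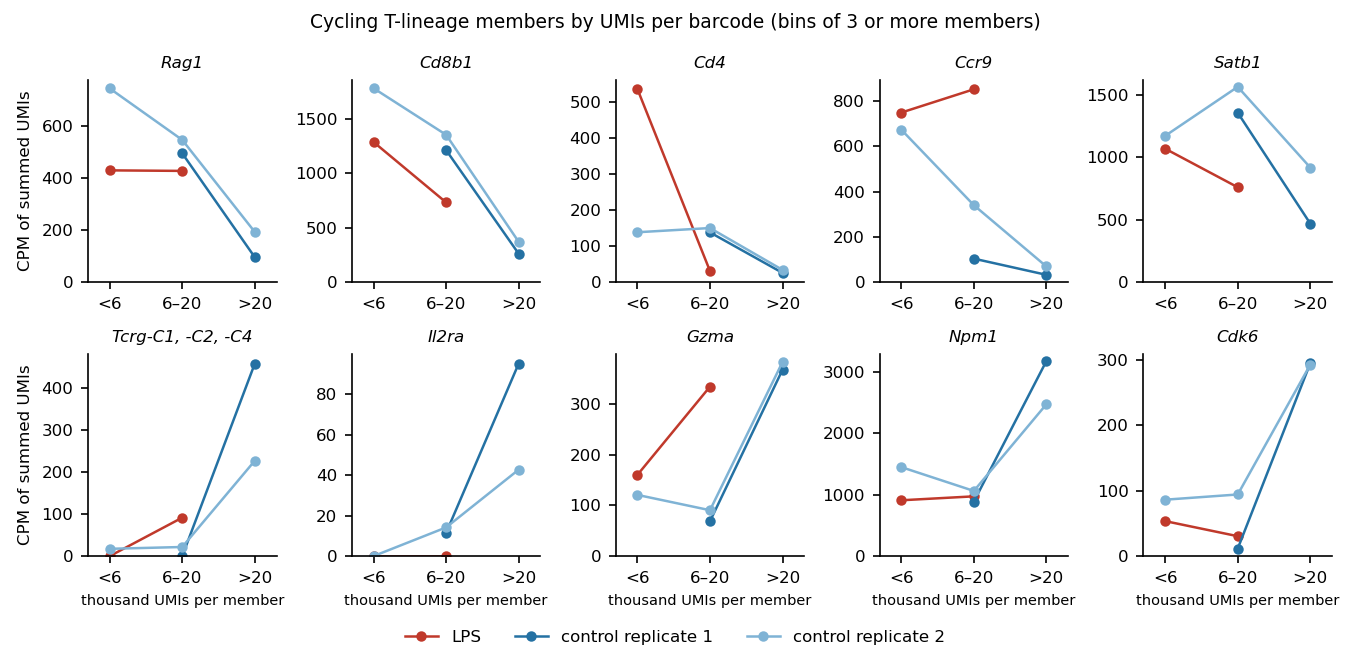
Each panel shows the CPM of 1 gene, or of the 3 gamma chain constant genes together, in members grouped by UMIs per barcode, under 6000, 6000 to 20000 and over 20000, for bins of at least 3 members. In both controls Rag1, Cd8b1, Cd4, Ccr9 and Satb1 are lower and the gamma chain genes, Il2ra, Gzma, Npm1 and Cdk6 higher in the deepest bin than in the middle one.

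Against all non-cycling barcodes the gamma chain genes were called higher in the controls, Tcrg-C1 at 1.05, Tcrg-C2 at 1.66 and Tcrg-C4 at 1.14 on the log2 scale, the last not called with the LPS library added to the fit (adjusted p = 0.14). Their UMIs lay mostly in the few deep members described above. In the window of 6000 to 20000 UMIs they were at -4.43, -3.58 and -4.04, all called lower, and Il2ra, not called in the full comparison (0.53, adjusted p = 0.095), was at -3.07.

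Most tested genes of positive selection and of mature T cells were lower in members. Cd69, an early activation marker raised by receptor signals, was at 0, 14.2 and 14.5 CPM in members, against 104, 103 and 73.8 CPM in non-cycling barcodes. Its log2 fold change was -2.26 ± 0.27 (adjusted p = 2.0e-15), and the libraries of the 2 classes did not overlap. Cd5, a receptor-signal inhibitor, was at 0, 20.4 and 54.4 CPM, against 91.3, 199 and 165 CPM, and fell by 1.75 ± 0.20 (adjusted p = 7.6e-18). Of 14 genes of the positive-selection list, 12 were called lower and 0 higher, with a median of -1.50 against -0.16 for all genes. The receptor-induced Nr4a1 (-2.71) and Egr1 (-1.83) were among them.

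Of 19 genes of the mature and egress list, 16 were called lower and 1 higher, with a median of -1.32. S1pr1, the S1P receptor that draws T cells out of the thymus and lymph nodes, was at 0, 0 and 6.11 CPM in members, against 78.3, 38.4 and 29.1 CPM in non-cycling barcodes. It fell by 2.38 ± 0.38 on the log2 scale (adjusted p = 3.1e-09). The 0 of the LPS members allows up to 28.9 CPM, worth 3 UMIs, which is close to the 29.1 CPM of control replicate 2. Klf2, the factor that switches on S1pr1, was at 38.5, 4.07 and 29.9 CPM, against 89.2, 92.6 and 94.8 CPM, and fell by 1.80 ± 0.25 (adjusted p = 4.9e-12). Il7r, the interleukin 7 receptor, was at 0, 4.07 and 14.5 CPM, against 394, 57.7 and 46.5 CPM, and fell by 1.78 ± 0.31 (adjusted p = 5.3e-08). Crip1, a LIM-domain protein, was the exception, at 577, 2076 and 1233 CPM against 259, 556 and 585 CPM (1.69 ± 0.13, adjusted p = 1.3e-36), but was not called in the window of 6000 to 20000 UMIs (0.14).

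Of 6 S1P genes tested, 3 were called lower and 0 higher, against 27.1% and 22.5% of all genes tested. Besides S1pr1 these were the receptor S1pr4 (-1.10) and the lipid phosphatase Plpp3 (-1.98), an endothelial and smooth muscle gene as well. The kinase Sphk2 (-0.16) and the phosphatase Sgpp1 (-0.14) missed the threshold.

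Of 11 effector, cytotoxic and regulatory genes, 9 were called lower and 1 higher, and of 5 natural killer and innate lymphoid genes 4 were lower and 0 higher. Klrk1, an activating natural killer receptor, had 0 UMIs in the members of all 3 libraries, against 100.03, 24.5 and 12.6 CPM in non-cycling barcodes. The inhibitory receptor gene Klrd1 was at 0, 0 and 0.644 CPM, against 69.6, 62.9 and 10.3 CPM. The chemokine Ccl5 was at 76.9, 0 and 15.4 CPM, against 1257, 71.6 and 85.0 CPM. Gzma was the gene called higher (1.81 ± 0.16, adjusted p = 9.1e-27). It was at 404, 265 and 226 CPM in members, against 2103, 196 and 43.8 CPM, so the LPS pair ran the other way, and the call was lost in the window of 6000 to 20000 UMIs (0.71) and with the LPS library added to the fit (0.37). At least 10 Gzma UMIs were held by 23 members, and the highest held 131.

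The cycle machinery itself moved with the gate, so its counts are a description. All 42 S-phase genes, all 50 G2/M genes and all 22 histone, chromatin and related genes were called higher, with median log2 fold changes of 3.45, 5.28 and 3.21. Pcna, the replication clamp, was at 115, 613 and 679 CPM in members, against 71.8, 59.4 and 74.3 CPM. Ccnb1 was at 212, 165 and 238 CPM, against 0, 1.75 and 0.474 CPM. Of 21 cyclins, kinases and E2F regulators, 17 were higher, among them E2f1 (4.30), Foxm1 (6.85) and Ccna2 (7.93), and 2 were lower. The lower ones were the D-type cyclins Ccnd1 (-1.64) and Ccnd2 (-1.09), which link growth signals to the cycle. Ccnd3, the D-type cyclin of dividing thymocytes, was at 164, 576 and 856 CPM in members, against 278, 617 and 815 CPM (0.21 ± 0.14, adjusted p = 0.19), and was called higher in the window of 6000 to 20000 UMIs (1.05).

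Of 15 genes of the list of inhibitors and quiescence 11 were lower, 2 higher and 2 neither. Btg1, an antiproliferative factor, was at 385, 109.9 and 238 CPM in members, against 1131, 1024 and 966 CPM in non-cycling barcodes, and fell by 2.27 ± 0.15 on the log2 scale (adjusted p = 1.9e-49). Txnip, which limits glucose uptake, was at 375, 46.8 and 93.6 CPM, against 859, 271 and 342 CPM, and fell by 1.84 ± 0.17 (adjusted p = 8.5e-26). Cdkn1b, the inhibitor p27, fell by 1.10 ± 0.16, but was not called in the window of 6000 to 20000 UMIs (-0.35, adjusted p = 0.31). The higher ones were the Cdk4 and Cdk6 inhibitor Cdkn2c, at 76.9, 134 and 159 CPM against 6.52, 29.7 and 31.8 CPM (2.48 ± 0.21), and the phosphatase Cdkn3 (4.72 ± 0.35), itself a mitotic gene.

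Most growth genes were higher. Of 23 genes of Myc, ribosome biogenesis and nutrient uptake, 17 were called higher and 0 lower, with a median of 1.39. Npm1 was at 1048 CPM in LPS members and 2363 and 1718 CPM in control members, against 663, 645 and 532 CPM in non-cycling barcodes (2.00 ± 0.13, adjusted p = 6.7e-54). Ncl, the nucleolar protein nucleolin, was at 885, 1618 and 1264 CPM, against 839, 624 and 483 CPM (1.60 ± 0.13). Neither was called in the window of 6000 to 20000 UMIs, at 0.18 and 0.41. Myc was at 0, 14.2 and 45.4 CPM, against 26.1, 19.2 and 12.0 CPM. It was called higher (1.76 ± 0.30), although members of control replicate 1 lay below its non-cycling barcodes in CPM, and it was at -0.59 in that window. The kinase gene Cdk6 behaved likewise, at 1.38 in the full comparison and -1.24 in the window.

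Death genes went both ways. The BH3-only killers Bbc3 (-3.13 ± 0.46) and Bcl2l11 (-1.39 ± 0.26) were lower, as were the survival genes Bcl2 (-1.16) and Mcl1 (-1.14), while the BH3-only gene Bid (1.51 ± 0.30) was higher. In all 8 of 14 were lower and 3 higher, against 27.1% and 22.5% of all genes tested. Of 25 interferon-response genes 16 were lower and 3 higher, the higher ones being the immunoproteasome subunits Psmb8 (0.91) and Psmb9 (1.31) and the surface protein gene Ly6e (0.99). In the window of 6000 to 20000 UMIs Psmb8 (0.46) and Psmb9 (0.50) were not called, and Ly6e was not with the LPS library added to the fit (adjusted p = 0.06). Of 13 glucocorticoid and stress genes 9 were lower, among them Tsc22d3 (-1.07, but not called in the window, at -0.54), and Fkbp5 was higher (1.49).

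**Figure D4:**
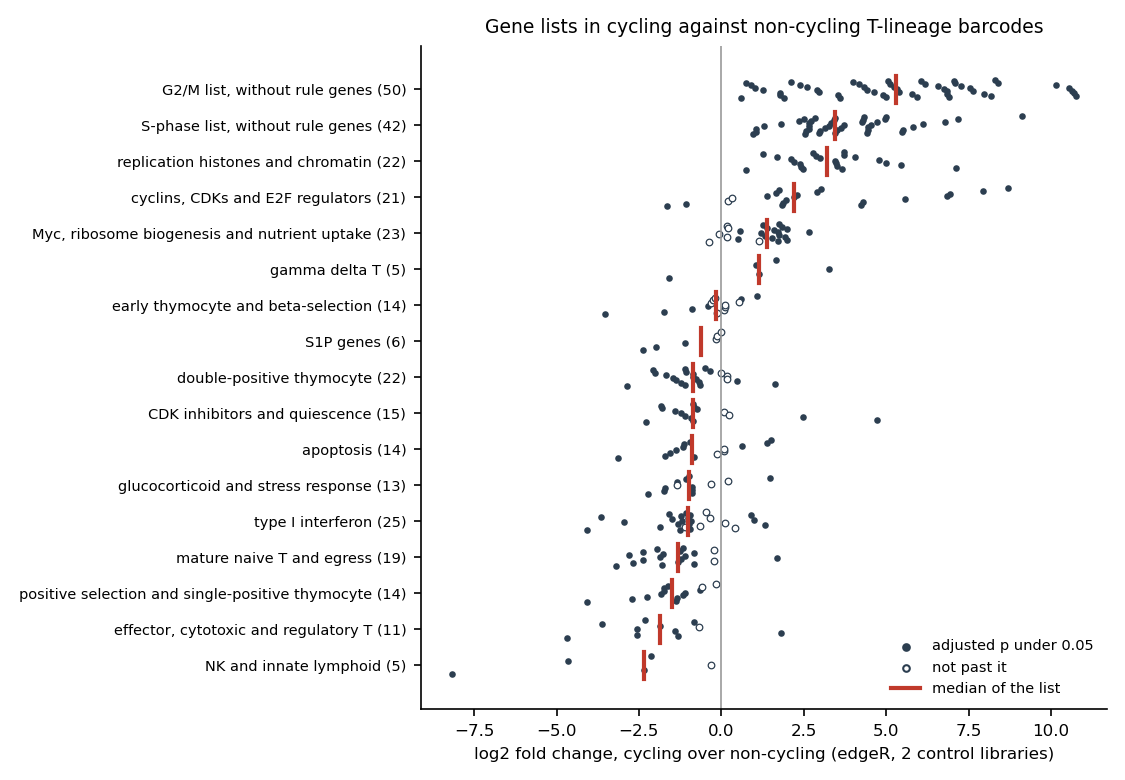
Each point is 1 tested gene of a list at its log2 fold change of cycling over non-cycling T-lineage barcodes in the 2 controls, filled where the adjusted p was under 0.05, with the list's median as a red bar and the number of genes in brackets. The cycle lists lie to the right, with medians of 3.21 to 5.28 for 3 of them, growth genes at 1.39, and thymocyte, mature and effector lists to the left of 0.

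Among the genes with the largest changes outside the lists, the 12 higher ones were mitotic or replicative. Like the cycle lists, they moved with the gate, so they are a description and no further support. They ran from Esco2, an acetyltransferase of sister chromatid cohesion (8.74), to Knl1, a kinetochore scaffold (6.68). They included the kinetochore genes Spc24 and Spc25, the kinesins Kif4 and Kif15, the spindle gene Aspm, the condensin subunit Ncapg, the checkpoint kinase Bub1b, the cohesin guardian Sgo2a, the kinase Pbk and Mxd3. The 12 lower genes ranged from Vamp1, a vesicle fusion protein (-3.27), to Mxd4 (-2.35). Besides Ccr9 they included the Tec-family kinase Txk, the surface glycoprotein Cd52, the cholesterol exporter Abcg1, Arap2, Nav2, Tspan32, Arl5c, Tctex1d1 and Gimap6. In the LPS pair Vamp1 (28.9 against 19.6 CPM) and Arl5c (183 against 128 CPM) ran the other way, higher in members. Mxd3 and Mxd4, both partners of the Myc partner Max, went opposite ways. Mxd3 was at 28.9, 102 and 103 CPM in members, against 0, 0 and 0.316 CPM in non-cycling barcodes, and Mxd4 at 250.1, 22.4 and 84.0 CPM, against 250.1, 362 and 372 CPM. Cd52 was at 57.7, 55.0 and 216 CPM, against 719.8, 1251 and 1040.0 CPM.

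The LPS library did not enter these tests, and its pair mostly ran the same way. Without erythroid-rich members, and among genes with at least 20 UMIs in its pair, 346 of 444 genes (77.9%) called higher over 2-fold in the controls were higher in LPS members, and 439 of 606 (72.4%) of those called lower were lower. Of the genes not called, 52.0% were higher in LPS members. Gate and cycle genes were not left out of these counts, and the same gate chose the LPS members. The share called higher was thus partly set by the selection, and all of these shares describe 1 library only.

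Because the non-cycling class also held Rag1-negative T, natural killer and innate lymphoid barcodes, the comparison was repeated among Rag1-positive barcodes, 8, 18 and 158 members against 37, 105 and 1178 non-cycling barcodes. Of 9415 genes tested in the controls, 43.9% were called, 2163 higher (23%) and 1969 lower (20.9%). Double-positive genes were again mostly lower. Cd4 was at 132, 71.7 and 108 CPM in Rag1-positive members, against 376, 559 and 450.3 CPM (-2.08 ± 0.19, adjusted p = 1.5e-18). Ccr9 was at -2.85 ± 0.22, Cd8b1 at -1.21 ± 0.17 and Trdc at 3.57 ± 0.23. Of 21 double-positive genes 15 were lower and 2 higher. Of 13 early thymocyte genes 2 were lower, 1 higher and 10 neither. Effector genes split, with 3 of 6 higher and 3 lower. The granule genes Gzma (2.56 ± 0.21) and Nkg7 (2.17 ± 0.47) and the chemokine gene Ccl5 (1.47 ± 0.51) were higher there, while Nkg7 and Ccl5 were lower in the comparison with all non-cycling barcodes. With a mitochondrial limit of 10% Ccl5 was at -0.052 there, and control replicate 1 held 0 UMIs of it in both classes. The 1 natural killer and innate lymphoid gene tested was not called.

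Fewer mature genes were called in the full comparison among Rag1-positive barcodes. Of 15 mature and egress genes 5 were lower and 1 higher, and of 11 positive-selection genes 6 were lower, none of them over 2-fold. Cd69 was at -0.74 ± 0.35 (adjusted p = 0.075), Cd5 at -0.67 ± 0.29 (adjusted p = 0.047) and Il7r at -0.26 ± 0.55 (adjusted p = 0.74). S1pr1 did not reach the count filter there. Klf2 remained lower at -1.33 ± 0.33 (adjusted p = 0.00049), with 48.1, 4.48 and 21.3 CPM in members against 18.2, 12.7 and 66.0 CPM, the LPS pair opposite. Growth genes stayed higher, 18 of 23, with Npm1 at 2.15 ± 0.18. Spo11, the meiotic break enzyme that double-positive thymocytes also transcribe, was among the 12 largest falls (-3.17 ± 0.33).

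LPS members were compared with control members without a test, because 9 members lay under the minimum of 10. Of 8004 genes with enough UMIs, LPS members lay past 2-fold above both controls for 673 (8.41%) and below both for 1967 (24.6%). Without the erythroid-rich members these were 13.5% and 24.9% of 7991 genes. With the stricter demand that exact 95% Poisson intervals of the CPM lay apart, 3.4% were higher and 5.08% lower, or 4.77% and 3.53% without the erythroid-rich members. LPS members are few and shallow, so a gene at 1 UMI there is worth 9.62 CPM.

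Most interferon-response genes stood higher in LPS members. Of 19 such genes with enough UMIs, 16 were past 2-fold above both controls, all 16 also with intervals apart, and 0 below. The median ratio of LPS over the control mean was 8.25, against 0.947 for all genes, and 9.44 without the erythroid-rich members. Isg15, a ubiquitin-like interferon product, was at 529 CPM in LPS members (55 UMIs, interval 398 to 689 CPM), against 16.3 CPM (8 UMIs, 7.03 to 32.1) and 14.8 CPM (46 UMIs, 10.8 to 19.7) in control members, and it was found in 9 of 9 LPS members. Iigp1, an interferon-inducible GTPase, was at 529 CPM (55 UMIs in 7 of 9 members), against 2.04 and 6.11 CPM. Without the erythroid-rich member they were at 525 and 579.7 CPM. Zbp1, Gbp2, Gbp9, Ddx58 and Igtp, all interferon-induced, were among the 12 genes with the largest ratios.

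The same genes were present in the other cells of that library. Isg15 was at 406 CPM in LPS non-cycling Rag1-positive barcodes, 350.2 CPM in endothelial-gated and 771 CPM in macrophage-gated ones, and Iigp1 at 448, 1499.9 and 153 CPM. Lcn2, an inflammation-induced lipid carrier gene, was at 164 CPM in LPS members (17 UMIs in 5 of 9 members), against 0 UMIs in control members, with 10679 CPM in endothelial-gated and 4261 CPM in macrophage-gated barcodes of the LPS library. How much of the interferon signal in members came from free RNA was not tested.

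Glucocorticoid and stress genes were also higher. All 9 with enough UMIs were past 2-fold above both controls, 7 with intervals apart, with a median ratio of 5.13 (6.41 without the erythroid-rich members). Tsc22d3, the glucocorticoid-induced leucine zipper, was at 394 CPM in LPS members (41 UMIs, all 9 members), against 14.2 and 47.3 CPM in control members. Fkbp5, a chaperone of the glucocorticoid receptor, was at 471 CPM, against 187 and 208 CPM. The metallothionein Mt1 was at 356 CPM, against 0 and 17.7 CPM, and was at 7320.0 CPM in endothelial-gated barcodes of the LPS library.

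Some genes that were high in LPS members were low in the other gated cells of that library. Zfp36l2, an RNA-decay factor that restrains the cycle in thymocytes, was at 1173 CPM in LPS members (122 UMIs, all 9 members), against 120.1 and 215 CPM in control members. It was at 1236 CPM in LPS non-cycling Rag1-positive barcodes but at 85.0 and 88.9 CPM in endothelial-gated and macrophage-gated ones. Bcl2l11, the BH3-only killer of thymocytes, was at 212 CPM, against 14.2 and 25.1 CPM, and at 309, 16.2 and 22.8 CPM in the same 3 classes of the LPS library. Emb, the cell-surface glycoprotein embigin, was at 481 CPM, against 67.2 and 116 CPM, and at 721, 27.7 and 131 CPM in those classes. In LPS members 1 member held 38 of the 122 Zfp36l2 UMIs, and 1 held 23 of the 50 Emb UMIs. Txnip was at 375 CPM, against 46.8 and 93.6 CPM, but endothelial-gated barcodes of the LPS library also held it, at 384 CPM. Its value was 885 CPM in LPS non-cycling Rag1-positive barcodes and 88.9 CPM in macrophage-gated ones. Without the erythroid-rich member Zfp36l2, Bcl2l11, Emb and Txnip were at 1629, 262, 566 and 511 CPM in LPS members.

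Many S-phase and growth genes stood lower in LPS members. Of 42 S-phase genes, 29 were past 2-fold below both controls, 15 with intervals apart, and 24 and 8 without the erythroid-rich members. Over all genes the shares were 24.6% and 5.08%, and 24.9% and 3.53% without those members. Pcna was at 115 CPM in LPS members (12 UMIs), against 613 and 679 CPM in control members, and Tyms, the thymidylate synthase, at 57.7 CPM, against 313 and 293 CPM. Of 22 growth genes 13 were lower, 11 with intervals apart, and 12 and 10 without the erythroid-rich members. Among the 13 was the translation factor Eif5a, at 298 CPM against 1185 and 1061 CPM. Of the 12 largest falls, including Fkbp1a, Cycs, Pbk and Lcp1, all rested on few UMIs in the LPS sum.

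Of 22 double-positive genes 2 were past 2-fold above and 4 below both controls in LPS members, against 8.41% and 24.6% of all genes. Of 12 early thymocyte genes 0 were above and 5 below, with a median ratio of 0.504, or 2 and 4 and a ratio of 0.690 without the erythroid-rich members. Of 4 gamma delta genes 0 were above and 2 below. Rag1 (250.1, against 236 and 386 CPM) and Cd8b1 (500.1, against 598 and 908 CPM) lay within the controls or below both by under 2-fold. Ccr9 lay above both controls, at 404 CPM against 56.99 and 221 CPM, but by under 2-fold over control replicate 2. Of its 42 UMIs in LPS members, 25 lay in 1 member. Dntt was lower, at 231 CPM against 657 and 1089.8 CPM. The depth make-up of the members differed between libraries, with 2 of 9 LPS members over 20000 UMIs, against 7 of 20 and 50 of 189, and its part in these differences was not tested.

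**Figure D5:**
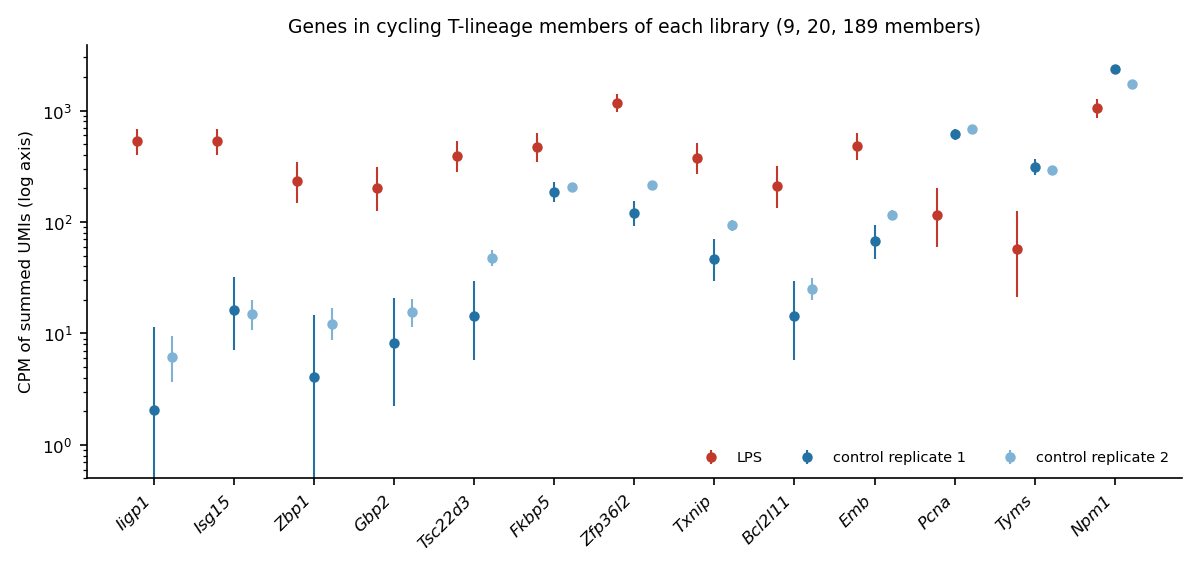
Points are the CPM of the summed UMIs of the members of each library on a log axis, with exact 95% Poisson intervals that cover counting error only. Interferon, glucocorticoid and related genes from Iigp1 to Emb lie higher in LPS members than in both controls, and Pcna, Tyms and Npm1 lie lower.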

How the data were processed

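Intimal cells of 1 LPS and 2 control pools were profiled with 10x 3' v3 chemistry. The authors deposited raw UMI counts of each gene in each barcode, from Cell Ranger 3.1 and mm10, per the submitters' processing notes. Barcodes were filtered and gated as given in the report, and UMI counts were summed per library and class. Classes were compared with edgeR 4.0.16 (TMM, quasi-likelihood test, Benjamini-Hochberg adjustment) in R 4.3.3 with the library as a block, because both sums of a pair come from the same library. Scripts were tested on simulated data. DESeq2 1.42.0 was an alternative. Each library is 1 pool, so p-values measure only the spread between 2 libraries, which may be technical. Replicate numbers follow accession order. The members, lists and tests were chosen with earlier results of these data known. Named genes were up to 12 each way with an adjusted p under 0.05 and at least 50 CPM on average. They ran the same way in both control libraries, and the LPS pair was not part of that rule. They lay outside the gate and cycle lists and Gm, Rik, mitochondrial, ribosomal and hemoglobin genes. Further members of the lists were also named. Between LPS and control members, named genes were up to 12 each way by CPM ratio among genes of at least 30 UMIs. LPS members had no test. Splits of members by depth, receptor genes or phase were chosen after their values were seen. No doublet caller was run, and intervals cover counting error only. Near-identical histone copies are uncertain.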

Additional observations from a re-analysis of the deposited data

How the results depend on the processing

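Cycling against non-cycling barcodes gave 4843 called genes. The count was 1602 with the DESeq2 Wald test, 1293 without the replicate block (the library pairing), 1805 among barcodes of 6000 to 20000 UMIs and 2824 with the LPS library added as another pair. Leaving out 1 control with the LPS library added gave 482 to 737. Among Rag1-positive barcodes 4132 genes were called, 1352 with the DESeq2 Wald test, 1195 without the replicate block and 489 to 1077 on leaving out 1 control. Scaling by library size alone gave 1771 higher and 3524 lower, against 2197 and 2646, and 1590 and 3108 among Rag1-positive barcodes, against 2163 and 1969. LPS members lay past 2-fold of both controls for 2640 genes, 5427 with no count filter and 679 with intervals apart. Thinning gave cycling shares of 3.33% in the LPS library and 7.59% in control replicate 2, where a mitochondrial limit of 10% gave 27.9%. With no C1q UMI allowed there were 142 members, 117 in control replicate 2. Thinned median G2/M shares were 87.5%, 76.6% and 70.7%, and Rag1 was found in 35.0% and 39.6% of thinned control members. Log2 fold changes that turned round among barcodes of 6000 to 20000 UMIs were Rag2 0.71, Cd8a 0.89, Cd8b1 0.58, Tcrg-C1 -4.43, Tcrg-C2 -3.58, Tcrg-C4 -4.04, Notch1 -0.20, Il2ra -3.07, Myc -0.59, Cdk6 -1.24 and Trp53 -0.18. With control replicate 2 left out, Rag2 was at 0.13, Tcrg-C4 at -0.12 and Gzma at -0.79, and the LPS over control ratio of Rag1 was 1.06. Mt1 and Cp had no finite ratio there, being at 0 in control replicate 1. With control replicate 1 left out, Cd8a was at 0.035 and that ratio of Rag1 was 0.647. With a mitochondrial limit of 10% Ccl5 was at -0.052 among Rag1-positive barcodes. The cause was not tested for any of these. A window of 2000 to 8000 UMIs, and that of 6000 to 20000 for Rag1-positive barcodes, were not run because fewer than 2 controls kept 10 barcodes in both classes. The 103974 UMIs of the LPS members limit what can be seen there.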

Other observations

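Replication histones, whose transcripts are made in S phase and mostly lack a poly(A) tail, differed between the 2 controls. In members Hist1h4d was at 933 CPM in the LPS library, against 3261 and 142 CPM in control replicates 1 and 2. Hist1h1b was at 1279 CPM, against 4026 and 679 CPM. The replication-independent H2afz was at 2106 CPM, against 4071 and 4063 CPM, so the controls were alike for it.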
